A study of Homo sapiens with 18 samples.

Results

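The genes FOS, FOSB, FOSL2, JUN, JUNB, JUND, EGR1, IER2 and IER5 code for AP-1 transcription factor subunits and for other immediate early proteins. They were taken by name from a gene table of CAGE tags, and all 9 were found among its 14079 gene symbols. CAGE counts capped RNA starts, 1 tag for each sequenced 5′ end, so a longer transcript gains no extra tags and levels can be set side by side between genes. Over all 18 libraries FOSB had the fewest tags, 492, and JUNB the most, 8510. All 9 were among the 10031 genes that passed the filter on low counts, which read all 18 libraries together. In any library with the solvent alone, FOS had at most 11 tags, FOSB at most 5 and JUN at most 21. The 21 tags came from the deepest library, and the filter weighs tags against depth. FOS, FOSB and JUN therefore passed through the libraries treated with a compound, described below. Their rises with a compound are not independent of that filter.

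The libraries came from 2 human acute myeloid leukaemia lines, OCI-AML3 and OCI-AML2 (AML3 and AML2 below), cultured with the BET inhibitor JQ1, the BET inhibitor OTX015 or the solvent DMSO as vehicle, with 3 libraries in each of the 6 groups. As background, AML3 carries the NPM1 mutation that sends its protein to the cytoplasm and AML2 does not, although the labels state no genotype. With 1 line of each kind, the NPM1 state cannot be told apart from any other difference between the lines. JQ1 and OTX015 share a thienotriazolodiazepine core, and differ in a side chain that is a tert-butyl ester in JQ1 and a hydroxyphenyl amide in OTX015. Doses and times of treatment were not in the labels. Nothing in the labels says that the libraries of a group came from separate cultures, so p-values measure the spread between these libraries, which may be technical. In bulk RNA, fewer cells of a type and less RNA per cell cannot be told apart.

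AP-1 is a dimer of leucine zipper proteins. FOS family proteins need a JUN family partner, while JUN family proteins can also pair with each other, and the dimers bind sites spelled TGANTCA. Immediate early genes are switched on by kinase signals without new protein synthesis, through factors already bound at their promoters such as serum response factor and CREB. In myeloid cells EGR1 and AP-1 proteins accompany the turn towards monocytes and macrophages. BET proteins read acetylated histones and help RNA polymerase II leave promoters, and JQ1 and OTX015 occupy their bromodomains.

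The start regions of FOS, FOSB, FOSL2 and EGR1 are printed because their letters hold motifs of signal-induced factors, and because the first pair and EGR1 rose steeply while FOSL2 rose less. All 9 genes matched the RefSeq promoter table (GRCh38.p14), which gives 250 bases before and 50 after each annotated start. Capitals mark TATAAA in FOS and FOSB, TGACGT (the core of the cyclic AMP response element) or its reverse complement ACGTCA in all 4, TGANTCA in FOSL2, and in EGR1 also the CArG box bound by serum response factor and GCGNGGGCG, bound by EGR proteins. The windows lie on the plus strand at chr14:75278578-75278877 (FOS), chr19:45467746-45468045 (FOSB), chr2:28392608-28392907 (FOSL2) and chr5:138465229-138465528 (EGR1).
FOS: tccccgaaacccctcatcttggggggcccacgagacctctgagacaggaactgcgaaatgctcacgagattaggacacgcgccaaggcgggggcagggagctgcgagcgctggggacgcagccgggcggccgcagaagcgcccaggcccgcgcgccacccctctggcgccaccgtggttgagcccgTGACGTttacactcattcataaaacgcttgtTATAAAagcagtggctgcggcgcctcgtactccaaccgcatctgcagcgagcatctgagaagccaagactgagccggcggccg
FOSB: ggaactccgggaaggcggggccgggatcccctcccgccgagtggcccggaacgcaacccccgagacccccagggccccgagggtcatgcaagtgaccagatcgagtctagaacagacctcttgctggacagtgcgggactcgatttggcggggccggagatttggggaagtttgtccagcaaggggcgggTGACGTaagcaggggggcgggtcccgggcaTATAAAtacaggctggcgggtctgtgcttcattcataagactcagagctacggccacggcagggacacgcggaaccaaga
FOSL2: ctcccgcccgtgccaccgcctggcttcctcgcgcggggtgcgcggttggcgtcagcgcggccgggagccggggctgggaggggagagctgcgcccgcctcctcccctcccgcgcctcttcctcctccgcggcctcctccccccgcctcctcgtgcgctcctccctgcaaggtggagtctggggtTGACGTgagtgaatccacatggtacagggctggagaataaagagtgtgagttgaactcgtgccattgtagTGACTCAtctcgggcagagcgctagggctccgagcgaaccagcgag
EGR1: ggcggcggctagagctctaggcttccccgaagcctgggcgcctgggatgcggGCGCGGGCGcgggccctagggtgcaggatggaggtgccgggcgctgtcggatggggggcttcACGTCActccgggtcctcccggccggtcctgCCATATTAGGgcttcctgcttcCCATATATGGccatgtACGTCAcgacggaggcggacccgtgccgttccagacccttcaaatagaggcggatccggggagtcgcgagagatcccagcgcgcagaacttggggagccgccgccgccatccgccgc

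With the first transcribed base counted as 0, TATAAA began at -33 in FOS, -30 in FOSB and -31 in JUNB. These were the 3 of 9 windows with TATAAA on either strand, against 11.5% of 35116 RefSeq windows of the same length. TGACGT, also read on both strands, stood in 5 of 9 windows against 7.98% of all windows. It began at -64 in FOS, -60 in FOSB and -66 in FOSL2, and in EGR1 its reverse complement began at -136 and -67, the other window being that of JUND. CArG boxes began at -105 and -83 in EGR1 and stood in 1.29% of all windows, none of the other 8 members among them. TGANTCA began at 4 in FOSL2 and stood in 7.71% of all windows, and GCGNGGGCG began at -198 in EGR1 and stood in 9.43%. No other member held these last motifs. CCAAT stood in the windows of JUN, JUNB, JUND and IER5, against 34.6% of all windows. A match describes letters in a window and does not show that a factor was bound. The IER2 window surrounds its annotated start and not its main start, as described below.

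Gene tags per library ran between 303883 and 2163106, and the libraries numbered 3 were shallower (mean 580758 tags) than those numbered 1 and 2 (means 1194919 and 1264786). MALAT1, a long non-coding RNA, made up 1.41% to 6.75% of the tags in compound libraries and 0.102% to 0.291% in vehicle libraries. Of 7 myeloid markers, 6 were in the table (MPO was not analysed here), and their summed level was 398.6 to 597.4 CPM in AML3 with a compound against 1208.2 to 1344.5 CPM in AML3 with vehicle, and 826.2 to 1165.3 CPM in AML2 with a compound against 853.6 to 1696.8 CPM in AML2 with vehicle. Levels are in CPM, tag counts relative to the library total after scaling by its TMM factor. Of 15 markers of lymphoid, erythroid, stromal and epithelial cells, 3 (CD79A, COL1A2, PDGFRB) were in the table, with a summed level of 0 to 5.46 CPM, and the other 12 were not analysed here. The part of these differences in the results on the 9 genes was not tested.

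Of the 9 genes, 8 rose with JQ1 in AML3, FOSL2 being the exception, and all 9 rose with JQ1 in AML2 and with OTX015 in both lines. None fell. A change was called when edgeR's quasi-likelihood test gave an adjusted p under 0.05 after Benjamini-Hochberg correction over all 10031 genes. Upward calls by that rule made up 26.8% of all genes for JQ1 in AML3, 17.2% for JQ1 in AML2, 28.8% for OTX015 in AML3 and 20.5% for OTX015 in AML2. Downward calls made up 24.1% (JQ1, AML3), 17.4% (JQ1, AML2), 26.1% (OTX015, AML3) and 19.9% (OTX015, AML2). The median log2 fold change of the 9 genes was 2.15 with JQ1 in AML3 and 1.74 in AML2, against 0.04 and 0.00 over all genes. With OTX015 it was 2.35 in AML3 and 2.05 in AML2, against 0.03 and 0.02 over all genes. Every compound library lay above every vehicle library of its line for all 9 genes in 3 of the comparisons and for 8 of 9 with JQ1 in AML3. Over all genes this held for 30.3% (JQ1, AML3), 23.9% (JQ1, AML2), 32% (OTX015, AML3) and 26% (OTX015, AML2). The JQ1 and OTX015 comparisons of a line share its vehicle libraries, so their values are given side by side and not as independent results.

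**Figure D1:**
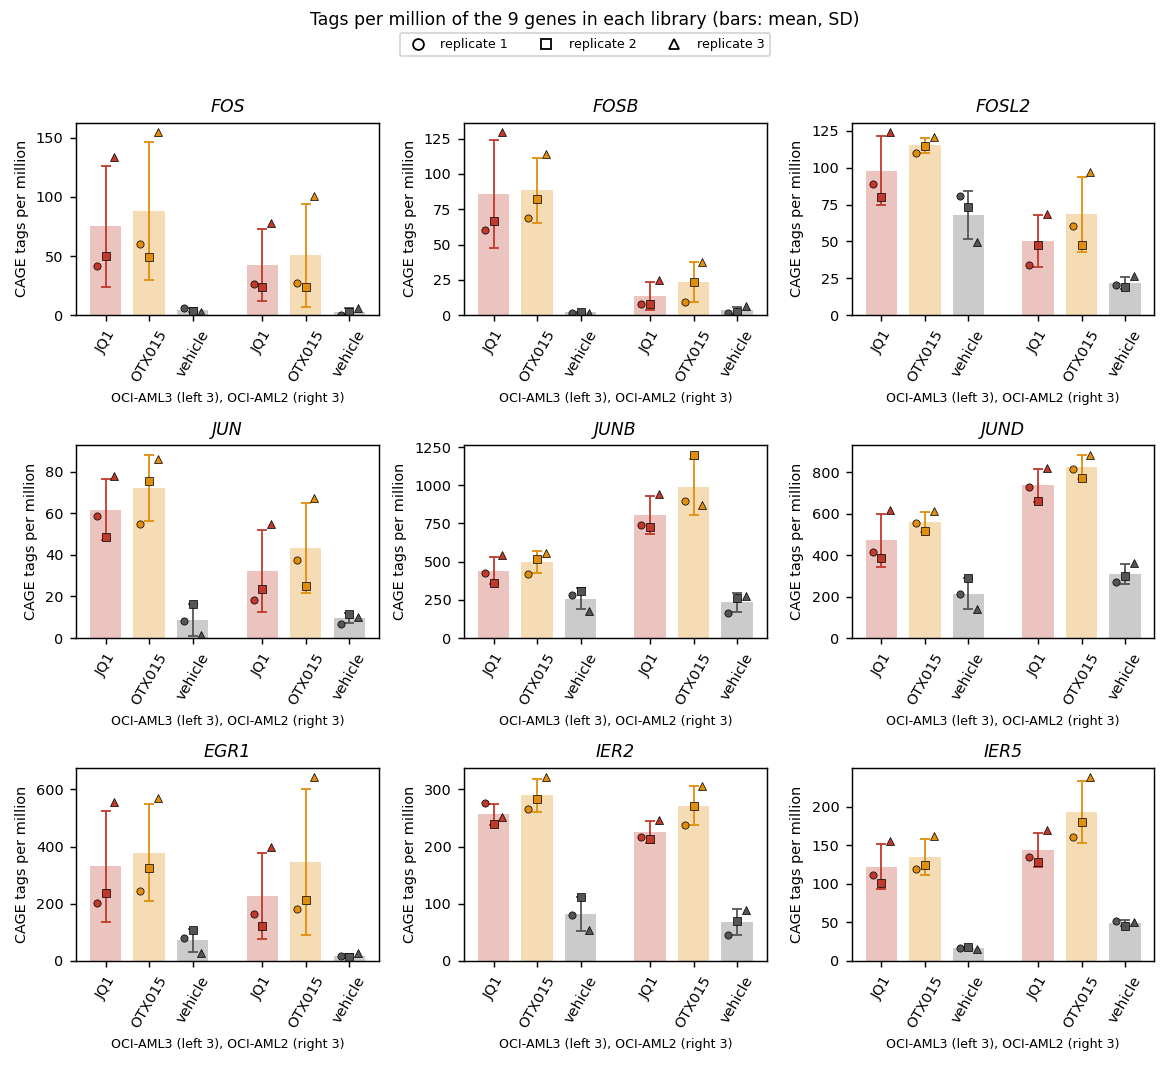
Level of each of the 9 genes in every library (vertical axes, CPM, each from 0), by line and treatment, with markers by library number, bars at the group mean and lines for 1 SD (n = 3). Compound libraries sit above the vehicle libraries of their line except for FOSL2 in AML3 with JQ1, and the library numbered 3 is often the highest of a compound group.

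FOS codes for the subunit that gives the family its name and that must pair with a JUN protein. AML3 had 41.8, 49.7 and 133.5 CPM with JQ1 and 60.1, 49.3 and 155.1 CPM with OTX015 (replicates 1, 2 and 3), against 6.45, 3.46 and 2.84 CPM with vehicle. In AML2 it had 26.3, 23.8 and 77.6 CPM with JQ1 and 26.9, 24.2 and 101.1 CPM with OTX015, against 0, 2.71 and 6.39 CPM with vehicle. Those last values rest on 0, 5 and 5 tags, and the count of 0 allows up to 2.53 CPM. FOS thus had few tags with vehicle in both lines, and every compound library was above every vehicle library, most of all those numbered 3. On the log2 scale FOS was higher by 3.86 with JQ1 in AML3 (SE 0.81, edgeR adjusted p = 5.39e-05) and by 3.82 in AML2 (SE 1.0, adjusted p = 0.000627). With OTX015 it was higher by 4.09 in AML3 (SE 0.81, adjusted p = 2.03e-05) and by 4.02 in AML2 (SE 1.0, adjusted p = 0.000277). Each of these changes exceeded that of at least 98% of all genes tested.

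FOSB codes for a FOS relative of which a shortened form is known to be long-lived. AML3 had 60.5, 66.6 and 129.9 CPM with JQ1 and 68.8, 82.1 and 114.1 CPM with OTX015, against 1.76, 2.6 and 1.42 CPM with vehicle, which were 3, 3 and 1 tags. In AML2 its level was 7.99, 7.93 and 24.7 CPM with JQ1 and 9.34, 23.2 and 37.9 CPM with OTX015, against 1.69, 2.17 and 6.39 CPM with vehicle, or 2, 4 and 5 tags. Groups did not overlap in either line, but in AML2 the lowest JQ1 library was only just above the highest vehicle library. The log2 fold change was 5.30 with JQ1 in AML3 (SE 0.76, edgeR adjusted p = 2.05e-08) and 5.37 with OTX015 (SE 0.76, adjusted p = 1.28e-08). In AML2 it was 1.99 with JQ1 (SE 0.70, adjusted p = 0.0188) and 2.84 with OTX015 (SE 0.67, adjusted p = 0.000425). The JQ1 call in AML2 was lost without AML2 vehicle replicate 1 (log2 1.73, adjusted p = 0.0713), without AML2 vehicle replicate 2 (1.70, adjusted p = 0.0969) or without AML2 JQ1 replicate 3 (1.42, adjusted p = 0.13). A fit on the AML2 groups of a comparison alone filtered FOSB out.

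FOSL2 codes for FRA2, a FOS relative without the strong activation domain of FOS. In AML3 it stood at 88.9, 80.3 and 124.5 CPM with JQ1 and 110.3, 115 and 120.6 CPM with OTX015, against 80.9, 73.5 and 49.6 CPM with vehicle. AML2 had 34.2, 47.6 and 68.8 CPM with JQ1 and 60.7, 47.4 and 96.9 CPM with OTX015, against 20.2, 19 and 26.8 CPM with vehicle. Only the JQ1 and vehicle libraries of AML3 overlapped, by the margin of 1 library. Its log2 fold change with JQ1 in AML3 was 0.47 (95% interval -0.05 to 0.99, edgeR adjusted p = 0.12). That value became 0.92 (adjusted p = 0.0208) with plain library totals in place of TMM factors. With OTX015 in AML3 it was 0.73 (SE 0.25, adjusted p = 0.0165), a call lost without AML3 vehicle replicate 3 (0.56, adjusted p = 0.0814). Plain library totals gave 1.23. In AML2 it was 1.19 with JQ1 (SE 0.30, adjusted p = 0.00333) and 1.61 with OTX015 (SE 0.30, adjusted p = 0.000118).

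JUN, the first known partner of FOS, had 58.7, 48.6 and 77.6 CPM in AML3 with JQ1 and 54.6, 75.6 and 86.1 CPM with OTX015, against 8.21, 16.4 and 1.42 CPM with vehicle. The last of these values was 1 tag. In AML2 the levels were 18.3, 23.8 and 54.7 CPM with JQ1 and 37.4, 25.2 and 67.4 CPM with OTX015, against 6.74, 11.4 and 10.2 CPM with vehicle. Compound and vehicle libraries did not overlap in either line, and in AML2 the library numbered 3 was the highest with each compound. In AML3 JUN rose by 2.66 with JQ1 (SE 0.45, edgeR adjusted p = 1.48e-05) and by 2.89 with OTX015 (SE 0.45, adjusted p = 3.70e-06), both log2. In AML2 it rose by 1.63 with JQ1 (SE 0.47, adjusted p = 0.00704) and by 2.05 with OTX015 (SE 0.46, adjusted p = 0.000645). The JQ1 call in AML2 was lost without AML2 JQ1 replicate 3 (1.15, adjusted p = 0.0657).

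JUNB and JUND, the JUN relatives that drive transcription less strongly than JUN in many settings, were the most abundant of the 9 genes. JUNB had 423.2, 361.4 and 541.1 CPM in AML3 with JQ1 and 417.2, 520.2 and 553.5 CPM with OTX015, against 278.5, 310.6 and 178.7 CPM with vehicle. In AML2 its level was 741.9, 726.3 and 945.5 CPM with JQ1 and 895.5, 1200.6 and 867.5 CPM with OTX015, against 163.5, 259.3 and 276 CPM with vehicle. The groups stayed apart in AML3, but the lowest JQ1 library was close to the highest vehicle library. The JUNB log2 fold change with JQ1 in AML3 was 0.78 (SE 0.29, edgeR adjusted p = 0.0277), and that call was lost without AML3 vehicle replicate 1 (0.83, adjusted p = 0.0571), AML3 vehicle replicate 3 (0.57, adjusted p = 0.151), AML3 JQ1 replicate 1 (0.79, adjusted p = 0.053) or AML3 JQ1 replicate 3 (0.61, adjusted p = 0.0899). With OTX015 in AML3 it was 0.95 (SE 0.29, adjusted p = 0.00776), lost without AML3 vehicle replicate 3 (0.75, adjusted p = 0.058). Plain library totals gave 1.24 with JQ1 and 1.48 with OTX015. In AML2 it was 1.79 with JQ1 (SE 0.29, adjusted p = 4.39e-05) and 2.09 with OTX015 (SE 0.29, adjusted p = 4.94e-06).

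JUND, the JUN protein that resting cells also hold, had 414.4, 383.6 and 618.7 CPM in AML3 with JQ1 and 553.7, 513.6 and 611.6 CPM with OTX015, against 213.4, 289.8 and 139 CPM with vehicle. AML2 held 725.9, 662 and 820.3 CPM with JQ1 and 814.9, 772 and 884.3 CPM with OTX015, against 268, 298.9 and 360.3 CPM with vehicle. Each compound library was above each vehicle library of its line. The log2 fold change was 1.13 with JQ1 in AML3 (SE 0.28, edgeR adjusted p = 0.00197) and 1.25 in AML2 (SE 0.28, adjusted p = 0.00126). With OTX015 it was 1.38 in AML3 (SE 0.28, adjusted p = 0.000269) and 1.42 in AML2 (SE 0.28, adjusted p = 0.000311). JUND kept its call in every fit that left out 1 library.

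EGR1, a zinc finger factor of the macrophage programme, had 201.8, 236.7 and 555.6 CPM in AML3 with JQ1 and 245.7, 324.2 and 568.5 CPM with OTX015, against 80.3, 108.1 and 26.9 CPM with vehicle. In AML2 it had 163.2, 120.8 and 400.4 CPM with JQ1 and 182.1, 213.8 and 642.2 CPM with OTX015, against 16, 13 and 26.8 CPM with vehicle. Levels with a compound covered a like range in both lines, while the vehicle libraries of AML3 were all above those of AML2, 1 of them only just. In AML3 EGR1 rose by 2.15 with JQ1 (SE 0.50, edgeR adjusted p = 0.00112) and by 2.35 with OTX015 (SE 0.50, adjusted p = 0.000423) on the log2 scale. In AML2 it rose by 3.66 with JQ1 (SE 0.57, adjusted p = 2.75e-05) and by 4.26 with OTX015 (SE 0.57, adjusted p = 3.13e-06).

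IER2 codes for a small nuclear protein first found as a gene induced by growth factors. It had 276.5, 239.9 and 252.5 CPM in AML3 with JQ1 and 265.4, 282.5 and 320.9 CPM with OTX015, against 79.7, 112.5 and 53.9 CPM with vehicle. AML2 showed 216.9, 212.4 and 247 CPM with JQ1 and 238.2, 271.8 and 305.3 CPM with OTX015, against 44.7, 69.4 and 89.4 CPM with vehicle. Libraries of a compound group were close together here, and groups were far apart. The log2 fold change of IER2 was 1.63 with JQ1 in AML3 (SE 0.26, edgeR adjusted p = 1.92e-05) and 1.74 in AML2 (SE 0.26, adjusted p = 1.76e-05). With OTX015 it was 1.80 in AML3 (SE 0.26, adjusted p = 4.31e-06) and 2.01 in AML2 (SE 0.26, adjusted p = 2.04e-06).

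IER5, a relative of IER2 known to act with heat shock factor 1, had 111.1, 100.4 and 155.1 CPM in AML3 with JQ1 and 119, 124.8 and 161.5 CPM with OTX015, against 16.4, 18.2 and 15.6 CPM with vehicle. In AML2 its libraries held 134.7, 128.7 and 169.3 CPM with JQ1 and 161.1, 179.9 and 237.9 CPM with OTX015, against 52.2, 45 and 51.1 CPM with vehicle. Vehicle libraries were tight in both lines, and lower in AML3. The log2 fold change was 2.84 with JQ1 in AML3 (SE 0.26, edgeR adjusted p = 6.45e-09) and 2.98 with OTX015 (SE 0.26, adjusted p = 2.40e-09). In AML2 it was 1.54 with JQ1 (SE 0.23, adjusted p = 1.05e-05) and 1.96 with OTX015 (SE 0.22, adjusted p = 2.97e-07).

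**Figure D2:**
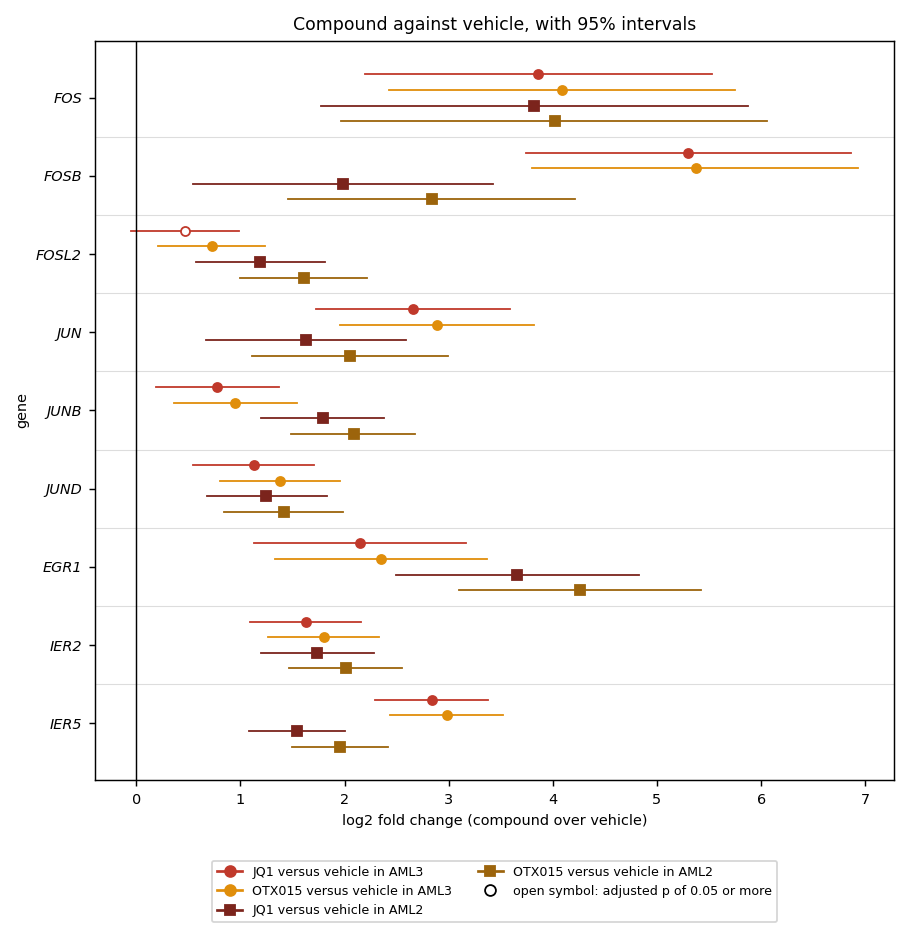
Log2 fold change of each gene against vehicle (horizontal axis) with its 95% interval, for each compound and line. All 36 estimates lie to the right of 0, and the interval of FOSL2 with JQ1 in AML3 reaches across it.

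The libraries numbered 3 stood apart within their groups. They had the highest level of all 9 genes in AML3 with OTX015 and AML2 with JQ1, of 8 of 9 in AML3 with JQ1 and AML2 with OTX015, and of 7 of 9 in AML2 with vehicle. In AML3 with vehicle the library numbered 3 was instead the lowest for all 9. With the libraries numbered 1 and 2 only, all 9 genes still rose with JQ1 in AML2 and with OTX015 in both lines, and 7 of 9 rose with JQ1 in AML3. Of 10252 genes tested in that fit, 2020 rose with JQ1 and 2227 with OTX015 in AML2. In AML3 2588 rose with JQ1 and 2832 with OTX015. With JQ1 in AML3 JUNB was 0.42 higher (log2, edgeR adjusted p = 0.0735) and FOSL2 0.13 higher, neither passing the test. JUND was then higher by 0.68 (adjusted p = 0.0021) and EGR1 by 1.23 (adjusted p = 1.14e-06) with JQ1 in AML3, and FOSL2 by 0.53 (adjusted p = 0.0163), JUNB by 0.66 (adjusted p = 0.0043) and EGR1 by 1.60 with OTX015 in AML3. FOS changed by 3.10 with JQ1 and 3.35 with OTX015 and FOSB by 4.85 and 5.09 in the same fits of AML3. The part of depth in what sets the libraries numbered 3 apart was not tested.

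**Figure D3:**
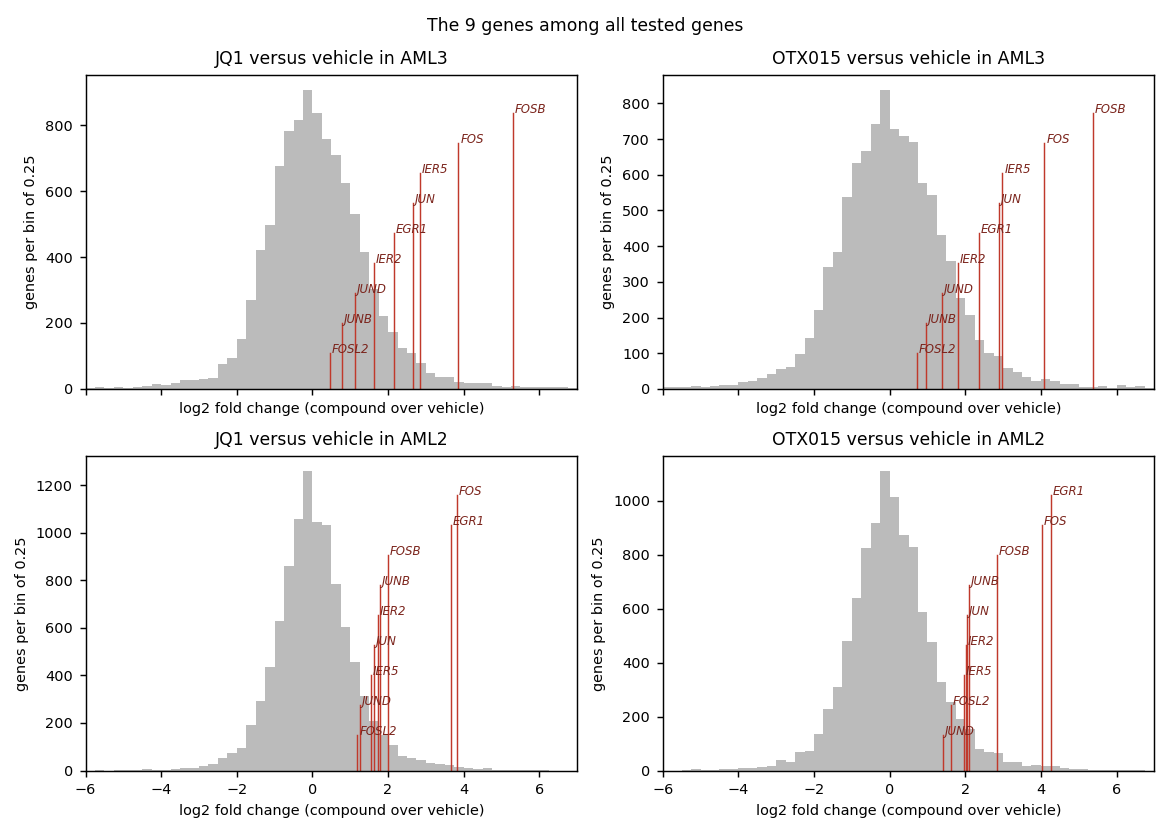
Distribution of the log2 fold changes of all 10031 genes tested (bars, number of genes per bin) in each compound comparison, with the 9 genes marked on the same horizontal axis. The markers sit to the right of 0 in each distribution, with FOSB and FOS farthest out in AML3, FOS and EGR1 in AML2, and FOSL2 and JUNB nearest the bulk in AML3.

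The genes also differed in level. In AML3 with vehicle JUNB led with 255.9 ± 68.8 CPM and FOSB came last with 1.92 ± 0.606 CPM (SD, n = 3). The order of the means was JUNB, JUND, IER2, EGR1, FOSL2, IER5, JUN, FOS and FOSB. Among neighbours, the ranges of JUND and IER2, of FOSL2 and IER5 and of FOS and FOSB did not overlap. For FOS and FOSB the gap was 2.84 against 2.6 CPM. It rests on 11, 4 and 2 tags of FOS and 3, 3 and 1 of FOSB, too few to order them. In AML2 with vehicle the order was JUND, JUNB, IER2, IER5, FOSL2, EGR1, JUN, FOSB and FOS, with 309.1 ± 47 CPM for JUND and 3.03 ± 3.21 CPM for FOS. There the ranges of JUND and JUNB, of IER2 and IER5, of FOSL2 and EGR1 and of FOSB and FOS overlapped, and the other neighbours in that order did not. With either compound JUNB and JUND had the 2 highest means in both lines.

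Within the tags of the 6 AP-1 genes, FOS, FOSB and JUN took a larger mean share with a compound in both lines. They took 17.5% in AML3 with JQ1 (14.8% to 21% over 3 libraries) and 17.1% with OTX015 (14.5% to 21.7%), against 2.51% with vehicle (1.52% to 3.23%). In AML2 they took 4.99% with JQ1 (3.38% to 7.88%) and 5.83% with OTX015 (3.47% to 10%), against 2.64% with vehicle (1.83% to 3.35%). JUNB and JUND took 74.5% in AML3 with JQ1 and 74.7% with OTX015, against 85% with vehicle, and 92.1% in AML2 with JQ1 and 90.7% with OTX015, against 93.5% with vehicle. The share of FOSL2 in AML3 was 7.98% with JQ1 and 8.18% with OTX015, against 12.5% with vehicle. The summed level of the 6 genes was 1234.3 ± 342 CPM in AML3 with JQ1 and 1420.5 ± 196.3 CPM with OTX015, against 552.9 ± 164.8 CPM with vehicle (SD, n = 3). In AML2 it was 1679.2 ± 272.4 CPM with JQ1 and 1997.4 ± 133.6 CPM with OTX015, against 579.9 ± 113.6 CPM with vehicle. These sums and shares describe the RNA starts and were not tested.

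**Figure D4:**
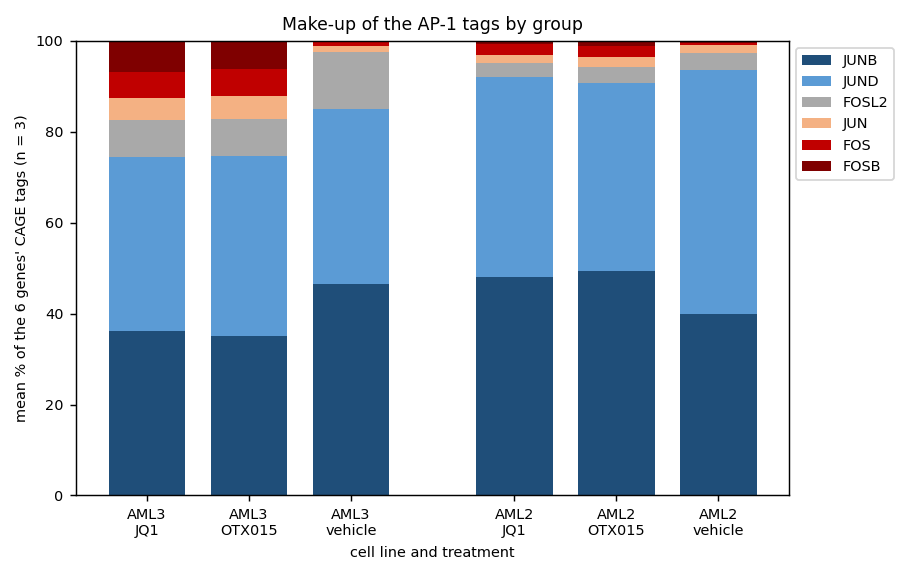
Mean share of each of the 6 AP-1 genes in their summed tags (vertical axis, percent, 3 libraries per bar), by line and treatment. FOS, FOSB and JUN together fill 17.5% and 17.1% of the AML3 bars with JQ1 and OTX015 against 2.51% of the AML3 vehicle bar, and JUNB and JUND fill most of every bar.

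The lines already differed with vehicle in 3 of the 9 genes, against 11.4% of all genes higher and 11.7% lower in AML3. FOSL2 was higher in AML3 by 1.69 (log2, SE 0.29, edgeR adjusted p = 5.69e-05), with 68 ± 16.4 CPM against 22 ± 4.22 CPM in AML2 (SD, n = 3). EGR1 was higher in AML3 by 2.05 (SE 0.58, adjusted p = 0.0102), with 71.8 ± 41.3 CPM against 18.6 ± 7.27 CPM, a call lost without AML2 vehicle replicate 2 (1.81, adjusted p = 0.0657) or AML3 vehicle replicate 2 (1.66, adjusted p = 0.0673). IER5 was lower in AML3, by -1.54 (SE 0.27, adjusted p = 8.30e-05), with 16.7 ± 1.31 CPM against 49.5 ± 3.89 CPM. The vehicle libraries of the lines did not overlap for these 3 genes and overlapped for the other 6, which did not pass the test. With the libraries numbered 1 and 2 only, IER2 passed as well, higher in AML3 by 0.74 (adjusted p = 0.00572) against 0.30 (adjusted p = 0.46) with all libraries, where 31.6% and 23% of all genes passed in either direction. Over all genes 19% were higher and 21.3% lower in AML3 without overlap.

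Whether a compound moved a gene more in one line than in the other was tested as the difference of the 2 changes, AML3 minus AML2. With JQ1 the difference passed for 2 of 9 genes, against 6.94% of all genes. For FOSB it was 3.31 (log2, SE 1.03, 95% interval 1.19 to 5.43, edgeR adjusted p = 0.0457) and for IER5 1.30 (SE 0.35, interval 0.58 to 2.01, adjusted p = 0.0195), both larger in AML3. The FOSB call was lost in 11 of the 18 fits without 1 library, with values of 2.77 to 3.59 (adjusted p = 0.0513 to 0.189). Those were the fits without vehicle replicate 1, 2 or 3 of either line, without AML2 JQ1 replicate 1 or 2, without AML3 JQ1 replicate 3 and without OTX015 replicate 2 of either line. It was lost as well with plain library totals (3.62, adjusted p = 0.0736). The IER5 call was lost without AML2 JQ1 replicate 1 (1.25, adjusted p = 0.0518), AML2 JQ1 replicate 2 (1.21, adjusted p = 0.0613) or AML3 vehicle replicate 1 (1.27, adjusted p = 0.067).

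With OTX015 the difference between the lines passed for 0 of 9 genes by edgeR, against 7.65% of all genes. At an unadjusted p under 0.05 there were 5 of 9 with OTX015 and 3 of 9 with JQ1, against 22% and 20.7% of all genes. DESeq2 called 2 of 9 with OTX015 (JUNB, -1.13, and IER5, 1.04), against 8.17% of all genes. FOSB differed by 2.53 (interval 0.45 to 4.61, adjusted p = 0.122) and IER5 by 1.03 (0.32 to 1.74, adjusted p = 0.0646), upward in AML3. JUNB differed by -1.14 (-1.97 to -0.30, adjusted p = 0.0906) and EGR1 by -1.91 (-3.45 to -0.36, adjusted p = 0.126), the change being smaller in AML3. Without AML2 OTX015 replicate 3 IER5 passed (1.18, adjusted p = 0.0343), and without AML3 JQ1 replicate 3 JUNB (-1.14, adjusted p = 0.0474) and IER5 (1.02, adjusted p = 0.0379) passed. With the libraries numbered 1 and 2 only, JUNB, EGR1, FOSL2 and IER5 passed with OTX015, at -1.68, -2.23, -0.97 and 0.95, against 13.8% of all genes. The same genes and FOSB passed with JQ1, at -1.41, -2.11, -1.0, 1.13 and 2.85, against 12.3% of all genes. For FOS the difference was near 0 with wide intervals, 0.04 with JQ1 (-2.60 to 2.68) and 0.08 with OTX015 (-2.56 to 2.71).

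**Figure D5:**
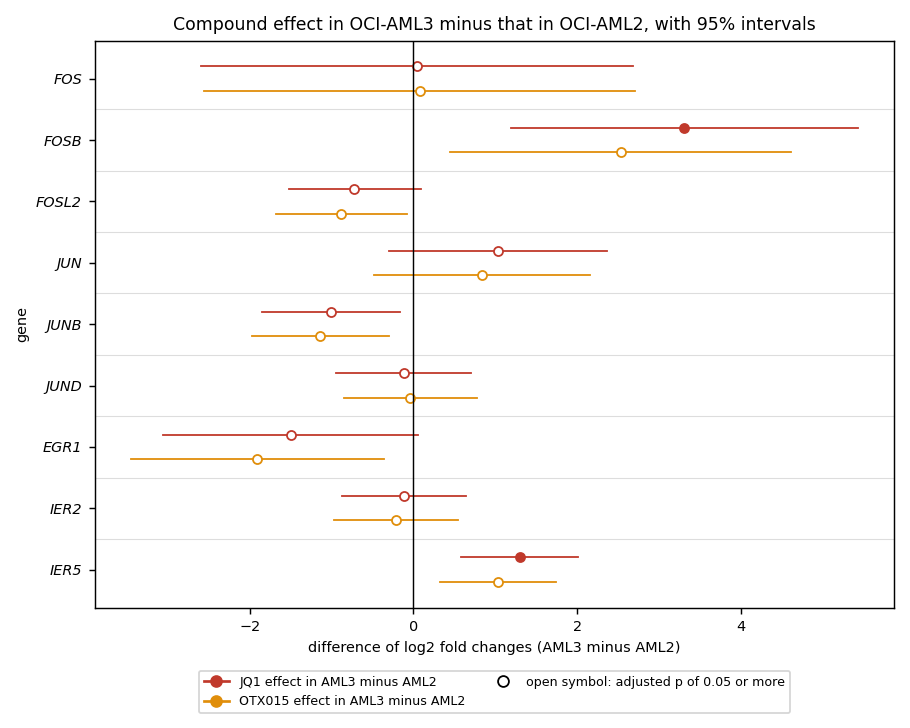
Difference of the log2 change between the lines, AML3 minus AML2 (horizontal axis), with its 95% interval, for each gene and compound. FOSB and IER5 lie to the right of 0 and JUNB and EGR1 to the left, and the FOS intervals are the widest.

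OTX015 and JQ1 were compared directly in each line, at doses and times the labels do not give, so a matched dose cannot be assumed. Of the 18 pairs, 9 genes in 2 lines, none passed in edgeR's test, none had an unadjusted p under 0.05, and 0% of all genes passed in either line. The unadjusted count over all genes was 331 in AML2 and 253 in AML3, and DESeq2 called 1 gene in AML2, none of the 9. The estimate was above 0, higher with OTX015, in all 18 pairs, where 49.7% of all genes were above 0 in AML2 and 48.6% in AML3. The 9 estimates of a line share their libraries and are not independent. In AML2 they ran from 0.16 to 0.85: FOSB was at 0.85 (interval -0.17 to 1.87), EGR1 at 0.60 (-0.39 to 1.59) and IER5 at 0.42 (-0.02 to 0.85, edgeR adjusted p = 1). In AML3 they ran from 0.07 for FOSB (-0.58 to 0.71) to 0.26 for FOSL2 (-0.26 to 0.77). These intervals leave room for differences in either direction, and a p that misses the threshold does not show that the ester and the amide compound act alike. Leaving out 1 library turned the sign for FOS and EGR1 in both lines and for FOSB in AML3.

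The tags of each gene came almost wholly from 1 narrow start cluster. Counts of 34 neighbouring promoters summed exactly to the gene counts in all 18 libraries, and the main promoter held 92% to 100% of a gene's tags. The main promoters were 15 to 21 bases wide, where the median width over 4772 promoters with at least 484 tags was 49 bases and 16.8% were 21 bases or narrower. JUNB and IER5 had a single promoter. Against vehicle, main promoters passed the test upward wherever their gene did. Upward calls made up 26.5% (JQ1, AML3), 17.1% (JQ1, AML2), 28.4% (OTX015, AML3) and 20.5% (OTX015, AML2) of all promoters. For the main promoters of JUNB and FOSL2 in AML3 these calls depended on the filter. With no filter on low counts JUNB did not pass with JQ1 (0.70, edgeR adjusted p = 0.196) or OTX015 (0.87, adjusted p = 0.0821), nor FOSL2 with OTX015 (0.67, adjusted p = 0.0772). The JQ1 call of the JUNB promoter in AML3 was also lost in 8 of the 18 fits without 1 library (0.54 to 0.82, adjusted p = 0.05 to 0.191). Those were the fits without AML3 vehicle replicate 1 or 3, AML3 JQ1 replicate 1 or 3, AML2 vehicle replicate 2, AML2 JQ1 replicate 2 or 3 and AML2 OTX015 replicate 1. Other such losses at main promoters came with libraries named above for their genes. For the JQ1 difference between the lines, the main promoter of FOSB did not pass (3.22, edgeR adjusted p = 0.0756), though its gene did. That of IER5 passed (1.33, adjusted p = 0.0243). The main IER2 cluster lay 2645 bases downstream of a minor one of 83 tags. By the shift between builds at JUNB on the same chromosome, the annotated IER2 start lies at the minor cluster. The RefSeq window of IER2, 1 of the 9 searched above, then leaves out its main start. Promoter names carry hg19 coordinates and were otherwise not converted.

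JUND had a minor start cluster that moved differently from its main one, a feature singled out after its values were seen. It lay 192 bases downstream of the main cluster, at chr19:18392236-18392248 on the minus strand of hg19, and held 110 tags. In AML3 it had 0, 0 and 1 tags with JQ1 and 0, 2 and 1 with OTX015, against 7, 5 and 2 with vehicle. AML2 showed 19, 17 and 6 tags with JQ1 and 11, 18 and 6 with OTX015, against 5, 6 and 4 with vehicle. The cluster thus had more tags with a compound in AML2 than with vehicle, and fewer with a compound in AML3. Every AML2 library with a compound had 10.7 CPM or more, and every other library at most 5.22 CPM. The cluster therefore passed the filter on low counts through AML2 with a compound. Its rise there and its line differences are not independent of that filter. Clusters 180 and 154 bases downstream of the main one (72 and 93 tags) did not pass it. In AML3 the ratio to vehicle was 0.0969 with JQ1 (95% counting interval 0.00229 to 0.637, edgeR adjusted p = 0.0129, where 23.8% of all promoters fell) and 0.335 with OTX015 (0.0617 to 1.2, adjusted p = 0.122). The JQ1 call in AML3 was lost without AML3 JQ1 replicate 1 (-2.35, adjusted p = 0.0751) or replicate 2 (-2.48, adjusted p = 0.0565). In AML2 it rose by 1.95 with JQ1 (log2, SE 0.50, edgeR adjusted p = 0.00208) and by 1.81 with OTX015 (SE 0.51, adjusted p = 0.00398). The difference between the lines was -4.91 with JQ1 (SE 1.55, adjusted p = 0.00405) and -3.28 with OTX015 (SE 1.06, adjusted p = 0.0301), against 5.55% and 6.3% of all promoters called. The OTX015 difference was lost without AML2 vehicle replicate 2 (-3.10), AML2 OTX015 replicate 2 (-3.10), AML3 vehicle replicate 1 (-3.22) or 2 (-3.22), AML3 OTX015 replicate 1 (-2.62) and with plain library totals (-3.05, adjusted p = 0.066). For the main JUND promoter the same differences were -0.03 and 0.05.

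Of the 3863 enhancers in the deposited table, 674 were named in hg19 and could not be placed near genes without a conversion. Within 100000 bases of the annotated gene starts lay 25 of the other 3189. Of these 25, 12 had enough tags to be among the 849 tested. Higher tags passed the test for 4 of 12 with JQ1 in AML3 (32.3% of all enhancers), 2 of 12 with JQ1 in AML2 (11.4%), 6 of 12 with OTX015 in AML3 (37%) and 2 of 12 with OTX015 in AML2 (16.5%). These shares are near those of all enhancers. The most strongly tagged, read as GRCh38 chr19:18291538-18292754 and 10524 bases upstream of JUND, had 20, 12 and 20 tags in AML3 with JQ1 and 16, 18 and 14 with OTX015, against 3, 5 and 3 with vehicle. In AML2 it had 8, 6 and 10 tags with JQ1 and 5, 6 and 3 with OTX015, against 3, 7 and 1 with vehicle. In AML3 each compound library had more tags than any vehicle library, and in AML2 the groups overlapped. Its log2 change was 2.68 with JQ1 (edgeR adjusted p = 1.76e-05) and 2.73 with OTX015 (adjusted p = 1.15e-05) in AML3, and 1.71 (adjusted p = 0.0396) and 1.01 (adjusted p = 0.313) in AML2.

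Each of the enhancers just upstream of EGR1 passed the test in some of the comparisons. The one 713 bases upstream rose in AML3 with OTX015 by 2.14 (log2, edgeR adjusted p = 0.0235). It had 6, 1 and 7 tags there against 4, 1 and 0 with vehicle, and these groups overlapped. In AML2 it had 3, 3 and 1 tags with JQ1 and 0, 3 and 4 with OTX015, against 0 with vehicle. The sums were at least 3.37-fold (edgeR adjusted p = 0.0193) and 3.68-fold higher (adjusted p = 0.011) against a floor of 3 tags over the group. The one 1401 bases upstream rose in AML3 by 1.93 with JQ1 (adjusted p = 0.0235) and by 2.47 with OTX015 (adjusted p = 0.00198). In AML2 it had 10 tags with JQ1 and 6 with OTX015, against 7 with vehicle, and did not pass. The other calls rested on few vehicle tags. The enhancers of those calls, and the one 713 bases upstream of EGR1, passed the filter on low counts through compound libraries. Their rises are not independent of that filter. An enhancer 5515 bases downstream of the annotated IER2 start had 8, 4 and 1 tags in AML3 with JQ1, against 0 with vehicle. That was at least 5.88-fold higher. With OTX015 it had 0, 4 and 0 tags, at least 2.08-fold higher, so that call rested on 1 library. One 5192 bases upstream of JUNB had 13 and 11 tags against 1 in AML3, ratios of 17.6 (2.65 to 749.7) with JQ1 and 17.2 (2.5 to 739.4) with OTX015. One 16927 bases downstream of the IER5 start had 0, 7 and 7 tags in AML2 with OTX015 against 0, 1 and 0 with vehicle. The ratio of the sums was 22.1 (3.36 to 933.8). One 26699 bases downstream of the EGR1 start rose by 2.06 (log2, edgeR adjusted p = 0.0308) in AML3 with OTX015. Without 1 library the JQ1 count in AML2 was 0 (AML2 vehicle replicate 1 or 2, or AML2 JQ1 replicate 1) or 1 (AML2 vehicle replicate 3, or AML2 JQ1 replicate 2 or 3), and the OTX015 count in AML2 was 1 without AML2 vehicle replicate 2 or AML2 OTX015 replicate 3.

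Other genes of the same pathways were read from 5 lists. Of those named below, ATF3, MAFF, SPRED1, MAP3K5, MRTFB and FBXW7 had at most 8.68 CPM in any vehicle library. These genes, and IER3, BTG2, NAB2, ELK3 and DET1, passed the filter on low counts through compound libraries. Their rises are not independent of that filter. Of 22 further immediate early genes tested, of 31 listed, 18 rose and 2 fell with each compound in AML3. In AML2 14 rose with JQ1 and 17 with OTX015, and none fell. Of all genes 26.8% (JQ1) and 28.8% (OTX015) rose in AML3 and 17.2% and 20.5% in AML2. Their median log2 change was 1.75 (JQ1, AML3), 1.62 (JQ1, AML2), 1.75 (OTX015, AML3) and 1.74 (OTX015, AML2), beside the medians over all genes given above. IER3, which codes for a survival factor, averaged 403.5 ± 236.7 CPM with JQ1 and 517.1 ± 230.4 CPM with OTX015 in AML2, against 7.46 ± 2.48 CPM with vehicle (SD, n = 3). It rose by 4.55 and 4.29 in AML3 and by 5.81 and 6.17 in AML2 with JQ1 and OTX015 (log2, edgeR adjusted p = 4.54e-10 to 3.16e-08). ZFP36, whose protein destroys AU-rich messages, rose by 1.85 and 1.88 in AML3 and by 3.03 and 3.04 in AML2. BTG2, an antiproliferative gene, rose by 2.07 and 2.48 in AML3 and by 5.17 and 5.41 in AML2, and its JQ1 call in AML3 was lost without AML3 JQ1 replicate 3 (1.19, adjusted p = 0.0686) and was at 1.25 with the libraries numbered 1 and 2 only. PPP1R15A, which codes for the stress phosphatase subunit GADD34, rose by 3.89 and 3.92 in AML3 and by 1.83 and 2.19 in AML2.

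Among other leucine zipper partners, 12 of 14 were tested. In AML3, 6 were called higher and 2 lower with each compound. In AML2, 5 were higher and 1 lower with JQ1, and 5 higher and 2 lower with OTX015. Higher calls over all genes were 26.8% (JQ1) and 28.8% (OTX015) in AML3 and 17.2% and 20.5% in AML2, and lower calls 24.1% and 26.1% in AML3 and 17.4% and 19.9% in AML2. The median change was 1.01 (JQ1, AML3), 0.73 (JQ1, AML2), 0.94 (OTX015, AML3) and 0.41 (OTX015, AML2). ATF3, a stress-induced partner of JUN, averaged 224.3 ± 285.3 CPM with JQ1 and 233.8 ± 200.5 CPM with OTX015 in AML3, against 1.93 ± 1.4 CPM with vehicle (SD, n = 3). Its log2 change was 6.52 and 6.59 in AML3 and 3.69 and 3.91 in AML2 with JQ1 and OTX015, with the library numbered 3 highest in each compound group. MAFF, a small MAF protein, rose by 2.62 with JQ1 and 2.83 with OTX015 in AML3 and by 2.40 with OTX015 in AML2, a value that was 4.14 without AML2 vehicle replicate 1. With JQ1 in AML2 it was at 1.60 (edgeR adjusted p = 0.0745), and passed without AML2 vehicle replicate 1 (3.35). BATF, which pairs with JUN proteins in lymphoid and dendritic cells, went down: by -1.76 (edgeR adjusted p = 0.000132) with JQ1 and -2.36 (adjusted p = 9.89e-06) with OTX015 in AML3, and by -1.63 (adjusted p = 0.000761) with OTX015 in AML2. With JQ1 in AML2 it was at -0.75 (adjusted p = 0.0725), and passed without AML2 vehicle replicate 2 (-1.10). ATF7, a relative of ATF2, rose by 1.51 and 1.50 in AML3 with JQ1 and OTX015 and by 0.94 with JQ1 in AML2, a call lost without AML2 vehicle replicate 2 (0.80, adjusted p = 0.0614).

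Of 25 MAP kinase cascade genes tested, of 27 listed, 14 were higher and 3 lower with JQ1 in AML3, and 13 higher and 1 lower in AML2. With OTX015 13 were higher and 3 lower in AML3, and 11 higher and 2 lower in AML2. Over all genes 26.8% were higher and 24.1% lower with JQ1 in AML3 and 17.2% and 17.4% in AML2, and with OTX015 28.8% and 26.1% in AML3 and 20.5% and 19.9% in AML2. The median change was 0.70 (JQ1, AML3), 0.73 (JQ1, AML2), 0.63 (OTX015, AML3) and 0.69 (OTX015, AML2). MAPK3, which codes for the kinase ERK1, fell to 19.8 ± 8.07 CPM with JQ1 and 12.3 ± 2.59 CPM with OTX015 in AML3, against 78.6 ± 21.8 CPM with vehicle. Its log2 change was -1.93 and -2.66 in AML3 and -1.16 and -1.22 in AML2 with JQ1 and OTX015 (edgeR adjusted p = 1.20e-07 to 0.00412). RPS6KA5, the kinase MSK1 that phosphorylates histone H3 and CREB, rose by 2.52 and 2.94 in AML3 and by 1.55 with OTX015 in AML2. MAP3K5 (the kinase ASK1) rose in all 4 comparisons, by 1.80 and 1.43 in AML3 and 1.85 and 2.50 in AML2. SPRED1, an inhibitor of RAS signalling, rose by 2.67 with each compound in AML3. In AML2 it had 7 tags with JQ1 and 4 with OTX015 against 2 with vehicle, ratios of 5.18 (0.986 to 51.1) and 3.22 (0.462 to 35.6).

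Of 10 serum response and EGR cofactor genes tested, of 12 listed, 2 rose with each compound in AML3, 3 with JQ1 in AML2 and 4 with OTX015 in AML2, and none fell. Upward calls over all genes were 26.8% and 28.8% in AML3 and 17.2% and 20.5% in AML2 with JQ1 and OTX015, so the AML3 counts are no more than the share of all genes. The median change was 0.45 (JQ1, AML3), 0.53 (JQ1, AML2), 0.42 (OTX015, AML3) and 0.79 (OTX015, AML2). EP300, the histone acetyltransferase p300, rose in all 4, by 1.24 and 1.50 in AML3 and 1.08 and 1.41 in AML2 with JQ1 and OTX015. With the libraries numbered 1 and 2 only its JQ1 value in AML3 was 0.77. NAB2, a repressor that binds EGR1, stood at 0.65 and 0.75 in AML3, where it did not pass the test, and rose by 1.91 and 2.23 in AML2. In AML3 it passed without AML3 vehicle replicate 1 (1.14 and 1.24) and with plain library totals (1.08 and 1.24). MRTFB, a partner of serum response factor, rose by 1.34 with JQ1 and 1.48 with OTX015 in AML3, calls lost without AML3 JQ1 replicate 2 (1.06, edgeR adjusted p = 0.079) and without AML3 OTX015 replicate 2 (1.18, adjusted p = 0.0574). ELK3, a partner of serum response factor, rose by 1.51 with OTX015 in AML2. With plain library totals it also passed with OTX015 in AML3 (1.06, adjusted p = 0.0334).

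Of 6 genes tested, of 7 listed, whose proteins mark AP-1 proteins for destruction or modify JUN, 4 rose with each compound in AML3 and 2 in AML2, and none fell, where 26.8% (JQ1) and 28.8% (OTX015) of all genes rose in AML3 and 17.2% and 20.5% in AML2. The median change was 0.82 (JQ1) and 1.01 (OTX015) in AML3 and 0.44 (JQ1) and 0.51 (OTX015) in AML2. ITCH, a ubiquitin ligase for JUN and JUNB, rose by 0.87 and 1.04 in AML3 and by 1.07 and 1.06 in AML2 with JQ1 and OTX015. FBXW7, which directs JUN to the proteasome, rose by 1.45 and 1.70 in AML3, the JQ1 call being lost without AML3 vehicle replicate 2 (1.24, edgeR adjusted p = 0.0541) or AML3 JQ1 replicate 3 (1.11, adjusted p = 0.0635). With OTX015 in AML2 it passed without AML2 vehicle replicate 2 (2.03) or AML2 OTX015 replicate 1 (1.62). DET1, part of a ligase for JUN, rose by 1.14 with OTX015 in AML3, lost without AML3 vehicle replicate 1 (1.0, adjusted p = 0.0644) or AML3 OTX015 replicate 2 (1.03, adjusted p = 0.0567). TRIB2, a pseudokinase that brings proteins to the same ligase, rose in all 4 comparisons, by 0.87 and 0.99 in AML3 (1.33 and 1.49 with plain library totals) and 1.36 and 1.27 in AML2. In AML2 its JQ1 call was lost without vehicle replicate 1 (1.40) or 2 (1.20) or JQ1 replicate 3 (1.13), and its OTX015 call without vehicle replicate 1 (1.31) or 2 (1.11) or OTX015 replicate 2 (1.39) or 3 (0.98). In AML3 the JQ1 call was lost without vehicle replicate 1 (0.69) or 2 (0.63) or JQ1 replicate 3 (0.53) and in a fit on the compared groups alone (0.89), and the OTX015 call without vehicle replicate 1 (0.80) or 2 (0.75).

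Genes with the most similar pattern were found by Pearson's r of log2(CPM + 1) over the 18 libraries, which share depth and treatment, and r is given as a description. EGR1 was most like KLF4 (r = 0.959), a factor of the monocyte lineage, and BAIAP2 (0.956). JUN was most like IKBKB (0.969), a kinase of the NF-kB pathway, and SOCS1 (0.965). JUNB followed NFKBIA (0.940), the NF-kB inhibitor, and C15orf39 (0.938). For FOS the nearest genes were ZZEF1 (0.978) and NFKBIZ (0.963), and for FOSB they were MIR7845 (0.974) and AC104066.3 (0.972). FOSL2 lay nearest to EXOC7 (0.957) and PRPF3 (0.946). JUND was most like RGS16 (0.953) and TOB1 (0.951), an antiproliferative relative of BTG2. IER2 was most like CCNL1 (0.960) and MARCKSL1 (0.959), and IER5 like AHR (0.972), the aryl hydrocarbon receptor, and SAT1 (0.967). None of these 18 nearest genes was one of the 9 themselves, among which r ran from 0.30 (FOSL2 and JUND) to 0.93.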

How the data were processed

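CAGE tags of 18 libraries were analysed, 3 in each of 6 groups of line and treatment. The tables hold the tag counts that the authors deposited for genes, promoters and enhancers, whole numbers that were not normalized. The submitters' processing notes name STAR and hg38. Versions, the counting tool and how promoters and enhancers were defined were not given in the sources used here. Duplicate libraries were looked for and not found.

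The test was edgeR's (4.0.16, R 4.3.3), with quasi-likelihood models with 1 mean per group over all 18 libraries (12 residual degrees of freedom), TMM factors (0.769 to 1.55) and the filterByExpr filter, with two-sided p-values adjusted by Benjamini-Hochberg over all features of a table. DESeq2 1.42.0 was an alternative. Levels are CPM, counts relative to the library total scaled by its TMM factor. Intervals are 95% intervals. Counting intervals and floors (3 tags) cover counting error only. An enhancer was tested, with library sizes of the promoter table, if 3 libraries or more held 3 tags or more. Those without a named build were read as GRCh38, since 37.4% lay within 2000 bases of a transcript start of that build against 22.3% after a shift by 50000 bases. Gene positions came from GENCODE and promoter windows from RefSeq. Enhancer distances run from the annotated starts around which those windows lie.

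Named genes were the 9 members, per list up to 4 genes with the smallest adjusted p in any compound comparison, and the 2 genes most like each member. The members and lists were chosen with earlier results of these data known. The scripts' statistics were checked on simulated counts. For OTX015 against JQ1, every pair of same-numbered libraries deviated together (correlations of 0.11 to 0.59), so the numbers pair these by the data, not by the labels, and the fit with the number as a block called 0 of 9 genes in each line, as without it.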

Additional observations from a re-analysis of the deposited data

Results flagged for a closer look

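The change with a compound differed between the lines, tested as AML3 minus AML2 with edgeR (log2), for the features below. For FOSB the difference was 3.31 with JQ1, and for IER5 it was 1.30 with JQ1, both described above. PPP1R15A moved more in AML3, by 2.06 with JQ1 (adjusted p = 0.0161) and by 1.73 with OTX015 (adjusted p = 0.0431). BTG2 moved less in AML3, with -3.10 for JQ1 (adjusted p = 0.0157) and -2.93 for OTX015 (adjusted p = 0.0198). RPS6KA5 moved more in AML3 with JQ1, by 1.79 (adjusted p = 0.0356). The minor start cluster of JUND, which passed the filter on low counts through AML2 with a compound, differed by -4.91 with JQ1 and -3.28 with OTX015. These are values, and no explanation of them was tested.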

How the results depend on the processing

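Of 898 recomputed values of the 9 genes against vehicle, over 26 alternative settings where each could be run, all 898 kept their direction and 886 also kept their call; 11 were lost and 1 gained, named above. Plain library totals, chosen after seeing the data, moved the median of all genes to 0.44 (JQ1, AML3), 0.16 (JQ1, AML2), 0.51 (OTX015, AML3) and 0.21 (OTX015, AML2). In that order genes higher and lower became 3635 and 1370, 1881 and 1262, 4029 and 1512, and 2262 and 1441, against 2685 and 2414, 1727 and 1742, 2886 and 2619, and 2053 and 1993 with TMM. The 9 genes were above 0 under each scaling.

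The differences between the lines depended most on the processing. Genes called with the libraries numbered 1 and 2 only were 1263 (JQ1) and 1410 (OTX015), with 5 and 4 members, and 1 (AML3) and 4 (AML2) for OTX015 against JQ1, where DESeq2 called 1 in AML2. OTX015 members were 2 with DESeq2 (8.17% of all genes) and 1 with only the compared groups (9.13%), and JQ1 members 1 with plain totals (5.36%). Without any 1 library, JQ1 genes ran from 462 (without AML2 JQ1 replicate 2) to 820, JQ1 members from 0 to 2 and OTX015 members from 0 to 2. With no filter on low counts, enhancers called near the members were 0 (JQ1, AML2) and 3 (OTX015, AML3). Without 1 library they ran from 0 to 2 (JQ1, AML2) and from 1 to 3 (OTX015, AML2). The cause was not tested.

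Against vehicle, same-numbered libraries did not deviate together in every pair, so they share only a number. With the replicate block, line differences of OTX015 passed for 4 members (FOSB, JUNB, EGR1, IER5; 11.1% of all genes, against 7.65% without it), those of JQ1 also for EGR1 (-1.69, adjusted p = 0.0384; 10.2% against 6.94%), BATF passed with JQ1 in AML2 (-0.71, adjusted p = 0.035), and 9 of 18 libraries correlated best with their own number. The block changed no other recomputed call of a named gene.

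Signs turned only for values that passed no test. For AML3 against AML2 with vehicle, JUN became 0.01 (block), 0.32 (libraries 1 and 2), 0.04 (compared groups) and 0.11 (plain totals), and FOSB 0.11 (libraries 1 and 2). In the line differences FOS became -0.02 (block) and -0.78 (libraries 1 and 2) with JQ1 and -0.55 (libraries 1 and 2) with OTX015. With plain totals JUND became 0.17 and IER2 0.14 with JQ1, and JUND 0.27 and IER2 0.10 with OTX015. Leaving out 1 library gave, for JQ1, FOS -0.62 to 0.64, JUND -0.36 to 0.15 and IER2 -0.34 to 0.16, and for OTX015 FOS -0.58 to 0.88, JUND -0.26 to 0.24 and IER2 -0.44 to 0.07. For AML3 against AML2 it gave JUN -0.67 to 0.28 and JUNB -0.07 to 0.33. For OTX015 against JQ1 it gave FOS -0.61 to 0.83 and EGR1 -0.18 to 1.25 in AML2, and FOS -0.35 to 0.84, FOSB -0.14 to 0.44 and EGR1 -0.19 to 0.78 in AML3. FBXW7 with JQ1 in AML2 ran from -0.15 to 1.52 and DET1 with OTX015 in AML2 from -0.49 to 0.22.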
